A study of Mus musculus with 9 samples.

Results

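Integrins are the receptors by which cells hold on to the extracellular matrix, and focal adhesions are the protein plaques that tie them to actin. Each integrin pairs an α with a β subunit. The α subunit largely sets the ligand: α1, α2, α10 and α11 with β1 bind collagens, α3, α6 and α7 bind laminins, and α5, α8 and αV bind ligands with an Arg-Gly-Asp (RGD) motif, fibronectin above all for α5β1. Inside the cell talin and kindlin bind the β tail, vinculin, zyxin and tensin link it to actin, the complex of ILK, PINCH and parvin supports the plaque, and FAK (Ptk2) with paxillin and p130Cas (Bcar1) relays signals. Fibroblasts rely on these genes to spread, pull and assemble fibronectin.

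The genes described are 18 integrin subunits (12 α and 6 β) and 17 plaque proteins, 35 in all, taken by name from a table of 24062 gene symbols. All 35 were in the table, and all 35 passed the filter on low counts among 14223 genes tested. The lowest count of any member in any library was 55, for Itgb4. Bulk RNA-seq was run on C57BL/6 MEFs, that is, embryonic fibroblasts taken from mouse embryos into culture, which the labels call non-senescent in every group. All 9 cultures carried a lentivirus and were labelled day 4: an empty vector in the 3 control libraries, a vector for p21 (Cdkn1a) in 3 and a vector for p16 (Cdkn2a) in 3. Both proteins inhibit cyclin-dependent kinases. Nothing in the labels says whether the libraries of a group came from separate embryos or cultures, so the p-values measure the spread between these libraries. That spread was 5.32 to 17.2 times counting error (chi-squared per degree of freedom). The replicate 3 library of each group also differed from the others of its group in Xist, as given below. How much of the remaining spread is technical was not tested. The labels do not name a promoter or a selection of infected cells.

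Library totals ran from 44455730 to 63152239 counts. Levels are CPM, read counts scaled to a common size by the TMM-scaled library total, unless a length is named. Cdkn1a stood at 1605 ± 172 CPM (SD, n = 3) with p21 against 360.2 ± 12.8 in the controls, and Cdkn2a at 1731 ± 179 CPM with p16 against 37.9 ± 3.86, so both delivered genes were high where the labels place them. The 10 fibroblast markers summed to between 27479 and 33723 CPM per library, most of it Col1a1 and Col1a2, and Dcn, Lum and Fap were each low, between 0.542 and 3.16 CPM as group means. Of 10 epithelial markers 7 were below 1 CPM in every library, as were 8 of 10 skeletal muscle and 5 of 8 endothelial markers. So were 7 of 8 Schwann cell and neural crest markers, but only 2 of 10 leukocyte and macrophage markers, Ptprc and Aif1. The replicate 3 library of each group stood apart: it carried Xist at 181 to 251 CPM against at most 6.96 CPM in the 6 others. Counts of called members are therefore also given without the replicate 3 libraries. In bulk RNA a change in the share of cells that carry a transcript and a change in its amount per cell cannot be told apart.

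The pair that gained most CPM with p21 was the fibronectin receptor, Itgb1 and Itga5. Their sequences just upstream of the transcription start are shown first, together with those of Vcl and Fermt2, the 2 members whose window held a CArG box, the site of the serum response factor SRF that is known to drive many actin and adhesion genes. Sequences are from RefSeq (GRCm38.p6), 5′ to 3′ on the gene's strand, and end before the first annotated transcribed base. Capitals mark a CArG box or the core GGAATG bound by TEAD factors, the partners of YAP.
Itgb1 (chr8:128685404-128685653, plus strand): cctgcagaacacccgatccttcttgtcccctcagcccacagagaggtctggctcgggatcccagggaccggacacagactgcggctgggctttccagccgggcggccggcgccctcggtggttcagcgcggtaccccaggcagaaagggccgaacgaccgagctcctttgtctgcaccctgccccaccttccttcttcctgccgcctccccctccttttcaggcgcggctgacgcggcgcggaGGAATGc
Itga5 (chr15:103366792-103367041, minus strand): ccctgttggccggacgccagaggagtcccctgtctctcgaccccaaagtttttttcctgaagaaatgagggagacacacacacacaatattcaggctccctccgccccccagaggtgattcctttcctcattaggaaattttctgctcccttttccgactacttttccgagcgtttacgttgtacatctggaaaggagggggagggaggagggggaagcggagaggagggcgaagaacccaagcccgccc
Vcl (chr14:20929148-20929397, plus strand): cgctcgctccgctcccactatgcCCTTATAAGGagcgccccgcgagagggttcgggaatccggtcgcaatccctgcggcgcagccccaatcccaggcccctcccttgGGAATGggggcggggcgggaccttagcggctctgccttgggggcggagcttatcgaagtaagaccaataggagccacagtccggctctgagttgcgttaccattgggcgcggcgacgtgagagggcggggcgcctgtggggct
Fermt2 (chr14:45530119-45530315, minus strand): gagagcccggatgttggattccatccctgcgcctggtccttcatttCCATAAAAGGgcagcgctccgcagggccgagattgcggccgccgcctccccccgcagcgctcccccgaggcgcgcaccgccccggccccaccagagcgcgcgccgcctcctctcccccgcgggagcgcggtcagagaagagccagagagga

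In these windows the CArG box of Vcl begins 227 bases before the RefSeq start and its TEAD core 143 bases before it. The CArG box of Fermt2 begins 204 bases and the TEAD core of Itgb1 7 bases before the start. Windows of 250 bases before and 50 after a start were on hand for 25 of the 35 members (31 windows, since some genes have several starts). Both strands were searched, and no match of one motif overlapped a match of the other. A CArG box was present in 2 of these 31 windows and in 1.63% of all 32851 windows of that length. The TEAD core was present in 4 of 31 (Itga10, Itgb1, Lpp and Vcl) and in 14.7% of all windows. A match is a description of letters, and the data do not show binding.

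Compared per kilobase of exon, so that genes of different length can be set side by side, the members spanned a wide range in the controls. Itgb1 was highest at 556 CPM per kb, followed by Itga5 at 278, Vcl at 170, Ilk at 136 and Zyx at 134. Exons of Ilk share 89.7% of their bases, and those of Vcl 25.5%, with genes on the opposite strand. As the kit keeps no strand, the places of Ilk and Vcl in this order are less certain. Itgb5, a β partner of αV, stood at 94.5 CPM per kb and Itgav at 50.5. At the other end Itgb4, the laminin receptor subunit of epithelial hemidesmosomes, stood at 0.179 CPM per kb, Itgb8 at 0.263 and Itga2, the collagen receptor subunit of platelets and epithelia, at 0.343. Itgb7, which pairs with α4 on lymphocytes, stood at 0.463 CPM per kb. The cultures thus carried mainly transcripts for α5, αV, β1 and β5, and those of Itgb4, Itgb8, Itga2 and Itgb7 were rare. The laminin-binding Itga3 and Itga6 lay between, at 12.1 and 6.78 CPM per kb.

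The first question is which adhesion transcripts differ when p21 is supplied. With p21, 16 of the 35 members rose and 0 fell in edgeR's quasi-likelihood test (adjusted p under 0.05 over all genes tested), or 45.7% of members against a background of 19.8% of all tested genes that rose and 20.1% that fell (39.9% called in all). Of the 18 integrin subunits only Itga1, Itga5, Itga7, Itga8 and Itgb1 rose, and the other members that rose were plaque genes. The 35 members had a median log2 fold change of 0.12 against 0.00 over all tested genes. Members were also more abundant than most tested genes, with a median level of 157 CPM against 18.7, so the background is not matched for level. For 16 members every p21 library lay above every control, as for 24.2% of all tested genes. With replicates 1 and 2 alone, 17 members rose and 0 fell, against 18.9% of all genes that rose and 19.6% that fell. DESeq2 also called 16 (19.4% of all genes rose). With the replicate number as a block in the fit 21 rose, against 24.0% of all genes. With scaling by library totals 13 rose, against 15.3% of all genes that rose and 26.3% that fell. Of the 16 calls, 12 held in each of 17 alternatives run.

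Markers of cell type also moved with p21. Of the 10 fibroblast markers 3 rose and 2 fell: Col1a1, Thy1 and Vim rose (log2 fold changes 0.17, 0.16 and 0.11), Col3a1 fell from 1756 to 1403 CPM (edgeR adjusted p = 0.00338), and Pdgfra fell from 33.5 to 16.8 CPM (adjusted p = 9.16e-04). Epithelial markers summed to 13.7 to 16.7 CPM in the controls and 17.3 to 18.5 with p21, without overlap. Of 3 tested, Krt18 rose from 12.1 to 13.98 CPM (edgeR adjusted p = 0.0200) and Cldn4 from 0.805 to 1.55 CPM (adjusted p = 0.00971), while Epcam, Cdh1, Krt5 and Krt14 were at or near 0. Endothelial markers summed to 5.52 to 6.13 CPM in the controls and 8.10 to 9.97 with p21, without overlap, and 0 of 5 tested passed in edgeR. Pecam1, Cldn5 and Tie1 were at or near 0. The Schwann cell and neural crest sums overlapped (1.19 to 2.2001 and 1.61 to 2.68 CPM), and 1 of 4 tested rose, Sox10 (0.101 to 0.238 CPM). The part of these shifts in the members' changes was not tested.

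Itgb1, the β subunit shared by the collagen, laminin and fibronectin receptors (chromosome 8, 128685654 to 128733200 in GRCm38, the build mm10), stood at 2297, 2230.5 and 2281 CPM in control replicates 1, 2 and 3. It reached 3195, 3018 and 3316 CPM with p21 and 2631, 2728 and 2611 CPM with p16. The 3 groups did not overlap, with every p21 library above every p16 library and every p16 library above every control. The rise with p21 was 1.399-fold (log2 fold change 0.48 ± 0.038 SE, edgeR adjusted p = 1.20e-06).

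Itga5, the α subunit of the fibronectin receptor (chromosome 15, 103344286 to 103366763), stood at 1361, 1392 and 1357 CPM in the controls. It was 1924, 1930.3 and 1663 CPM with p21 and 1636, 1633 and 1556 CPM with p16. The control libraries lay close together, and among the p21 libraries replicate 3 was the lowest yet still above every control and every p16 library. The rise with p21 was 1.34-fold (0.42 ± 0.050, edgeR adjusted p = 3.75e-05). The count ratio of Itga5 to Itgav, each per kb, needs no scaling between libraries and was 5.28 to 5.64 in the controls, 6.34 to 7.50 with p21 and 6.31 to 6.38 with p16. Both inhibitor groups thus lay above all controls, and they overlapped each other. Against Itgb1 the ratio did not separate the groups, at 0.490 to 0.516 in the controls, 0.415 to 0.529 with p21 and 0.493 to 0.514 with p16.

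Lims2 (chromosome 18, 31922290 to 31958619), which encodes PINCH2, an adaptor that binds ILK, had the largest log2 fold change of the 35 members with either inhibitor among those that passed. It stood at 13.8, 15.9 and 14.2 CPM in the controls, at 27.0, 29.0 and 27.4 CPM with p21 and at 19.9, 20.5 and 21.8 CPM with p16. The 3 groups did not overlap. With p21 it rose 1.89-fold (0.92 ± 0.063, edgeR adjusted p = 4.91e-07). Its close relative Lims1, which encodes PINCH1, was more abundant and stood at 153 ± 4.84 CPM in the controls and 157 ± 2.39 with p21 (edgeR adjusted p = 0.423). The per-length ratio of Lims2 to Lims1 was 0.139 to 0.167 in the controls, 0.270 to 0.299 with p21 and 0.201 to 0.223 with p16. How reads that fit both genes were counted is not given in the sources used here.

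**Figure D1:**
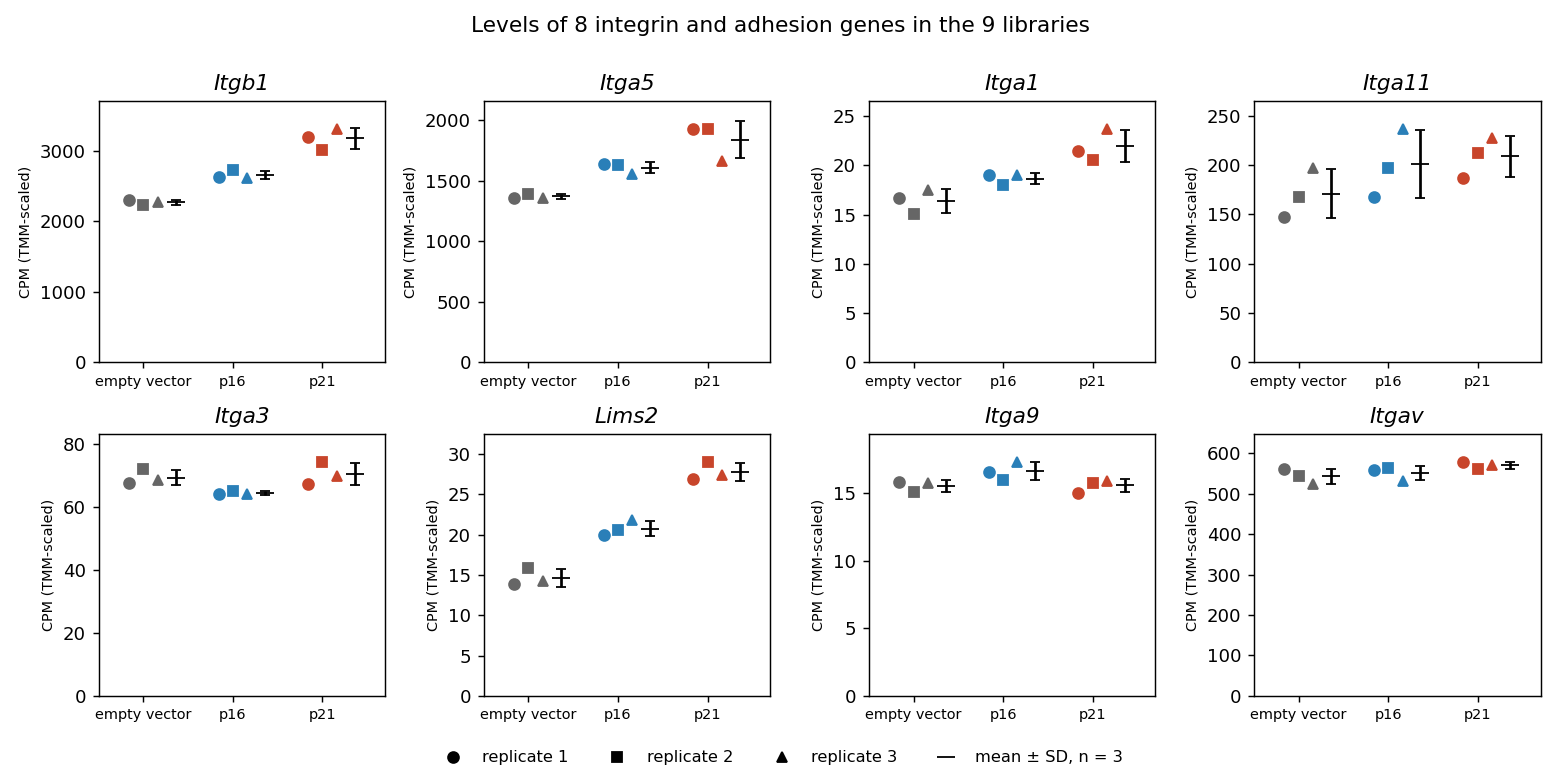
TMM-scaled CPM (vertical axes, each from 0) of 8 genes in the 9 libraries, grouped by vector; symbols mark the replicate number and black bars the mean ± SD of 3 libraries. Itgb1, Itga5 and Lims2 are lowest in the controls, higher with p16 and highest with p21, with no overlap, whereas Itgav, Itga3 and Itga9 of p21 overlap the controls.

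Among the 4 collagen-binding α subunits only Itga1 passed with p21. The counts in this and the other groups of subunits and plaque genes stand beside the 19.8% of all tested genes that rose and the 20.1% that fell, and with so few genes a group nothing is read from a single group. Itga1 (chromosome 13, 114953096 to 115101964) stood at 16.7, 15.1 and 17.5 CPM in the controls, 21.5, 20.6 and 23.7 with p21 and 19.0, 18.0 and 19.0 with p16. All p21 libraries lay above all others, a rise of 1.34-fold over the controls (0.42 ± 0.070, edgeR adjusted p = 4.50e-04). The most abundant collagen receptor subunit was Itga11 (chromosome 9, 62677826 to 62783982), which is known as the main fibrillar collagen receptor of fibroblasts. It stood at 147, 168 and 197 CPM in the controls, 187, 212 and 227 with p21 and 168, 197 and 237 with p16. The groups overlapped, because the level also differed by replicate number, with replicate 3 the highest in every group. Within each replicate number p21 was above the control in 3 of 3 cases. Itga11 did not pass (0.29 ± 0.12, edgeR adjusted p = 0.0726), but did with the replicate number as a block (adjusted p = 4.43e-07), without the replicate 3 libraries and in 5 other alternatives. Itga2 and Itga10, at 2.45 and 2.24 CPM in the controls, did not pass either.

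Of the laminin-binding subunits 1 of 4 rose. Itga7, the laminin receptor subunit of muscle, went from 24.9 ± 1.38 CPM to 28.6 ± 0.989 with p21 (0.20 ± 0.050, edgeR adjusted p = 0.00647). Of 10 skeletal muscle markers, of which 3 were tested, 2 rose with p21: Des, the muscle intermediate filament gene, from 87.4 to 224 CPM and Chrna1, an acetylcholine receptor subunit gene, from 1.63 to 3.07 CPM. Tnnt3, the other tested marker, was at 0.257 and 0.344 CPM (edgeR adjusted p = 0.505). Without Des the sum was 1.92 to 2.27 CPM in the controls and 3.20 to 3.99 with p21, most of it Chrna1. Myod1, Myog, Pax7 and Ckm were at or near 0, and the part of such cells in the Itga7 result was not tested. Itga3, the most abundant of the class, stood at 67.5, 72.0 and 68.5 CPM in the controls, 67.4, 74.2 and 69.8 with p21 and 64.04, 65.1 and 64.002 with p16. The p21 libraries overlapped the controls (edgeR adjusted p = 0.723), and the p16 libraries were all below them without passing the test (adjusted p = 0.163). Itga6 was at 61.1 ± 7.08 CPM in the controls and 68.0 ± 5.31 with p21 (0.15 ± 0.093, edgeR adjusted p = 0.214), a difference that passed with the replicate block (adjusted p = 0.00286). Itgb4 stood at 1.25 and 1.36 CPM.

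Of the other RGD-binding α subunits, Itga8, a receptor of nephronectin and fibronectin, rose from 12.3 ± 1.09 to 15.3 ± 1.14 CPM with p21 (0.31 ± 0.089, edgeR adjusted p = 0.0141). This call was lost without control replicate 1 or 3 or p21 replicate 2 (highest adjusted p = 0.0578). Itgav, the vitronectin and TGF-β activating subunit, was at 543 ± 18.7 CPM in the controls and 570.1 ± 8.75 with p21 (edgeR adjusted p = 0.122, and 0.0499 with the replicate block). Of its β partners, Itgb5, Itgb3 and Itgb8 did not pass. Itgb5 stood at 336 and 355 CPM (adjusted p = 0.165, and 0.0377 with the block), Itgb3 at 75.8 and 77.6 CPM, and Itgb8 at 2.91 and 2.45 CPM. Of α4 and α9, which bind fibronectin's spliced segments, VCAM1 and tenascin, neither passed. Itga9, the higher of them per length, stood at 15.8, 15.0 and 15.7 CPM in the controls, 15.0, 15.7 and 15.9 with p21 and 16.6, 15.98 and 17.3 with p16. The p21 libraries overlapped the controls, and the p16 libraries lay just above them. Itga4 stood at 7.64 CPM in the controls and 7.15 with p21, and Itgb7 at 1.28 and 1.38 CPM. Markers of leukocytes, which carry these subunits, summed to 24.2 to 35.3 CPM in the controls, 38.1 to 51.1 with p21 and 29.4 to 51.1 with p16. Of 9 tested markers 4 rose with p21, against 19.8% of all tested genes. These were Lyz2 (15.5 to 26.5 CPM), Csf1r (2.82 to 5.08), Tyrobp (0.513 to 1.20) and Ptprc (0.343 to 0.678). Of the 10 listed, Ptprc and Aif1 were below 1 CPM in every library and the others were not. The part of leukocytes in the values of Itga4, Itga9 and Itgb7 was not tested.

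Inside the cell, 11 of 17 plaque genes rose with p21 and 0 fell, against 19.8% and 20.1% of all tested genes, by small amounts other than Lims2. In the layer of talin, vinculin, zyxin and tensin, 4 of 8 rose. Vcl, which encodes vinculin, rose from 1389 ± 45.1 to 1669 ± 105 CPM (0.27 ± 0.046, edgeR adjusted p = 5.98e-04), with the CArG box shown above in its upstream window. Its exons share 25.5% of their bases with Ap3m1 on the opposite strand, and the kit keeps no strand. The counted level of Ap3m1 itself fell, from 71.4 to 61.4 CPM. Tns1, which encodes tensin 1 of fibrillar adhesions, rose from 395 to 472 CPM (0.26 ± 0.039), and Tln1, the talin that activates integrins, from 910.2 to 1045 CPM (0.20 ± 0.036). Zyx, the tension-sensing LIM protein zyxin, was 720 and 772 CPM (0.10 ± 0.037, edgeR adjusted p = 0.0443). That call was lost in 10 of 17 alternatives, among them scaling by library totals (highest adjusted p = 0.294). The actin polymerase gene Vasp stayed close in all libraries, at 241 ± 1.79 CPM in the controls and 241 ± 3.02 with p21. Tln2, Tns3 and Lpp did not pass, and Lpp did with the block (adjusted p = 0.0138) and without control replicate 1 (0.0493).

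In the complex of ILK, PINCH, parvin and kindlin 4 of 5 rose. Besides Lims2 these were Fermt2, which encodes kindlin-2 (448 ± 5.19 to 504 ± 8.98 CPM, 0.17 ± 0.028), Ilk, the scaffold pseudokinase (373 ± 5.11 to 414 ± 3.54 CPM, 0.15 ± 0.029), and Parva, which encodes α-parvin (430 ± 12.7 to 466 ± 6.54 CPM, 0.12 ± 0.031). The exons of Ilk share 89.7% of their bases with genes on the opposite strand, mainly Taf10, so its reads cannot be separated from theirs. Taf10 itself fell with p21, from 35.8 to 28.2 CPM (-0.34 ± 0.045). Parva no longer passed when control replicate 3 was left out (edgeR adjusted p = 0.0520) or when libraries were scaled by their totals (0.0973).

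Of the kinase and adaptors, 3 of 4 rose. Bcar1, the stretch-sensing scaffold p130Cas, went from 220 ± 5.003 to 257 ± 8.96 CPM (0.23 ± 0.033). Ptk2, which encodes focal adhesion kinase, went from 131 ± 3.55 to 149 ± 6.42 CPM (0.19 ± 0.040). Pxn, which encodes paxillin, stood at 57.4, 58.1 and 59.3 CPM in the controls and at 70.7, 71.4 and 60.3 with p21, so replicate 3 was barely above the controls. Its call (0.21 ± 0.061, edgeR adjusted p = 0.0149) was lost without p21 replicate 1 or 2 and with scaling by library totals (highest adjusted p = 0.0662). Tgfb1i1, the paxillin relative Hic-5, was at 255 ± 10.97 and 261 ± 12.1 CPM (adjusted p = 0.594).

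**Figure D2:**
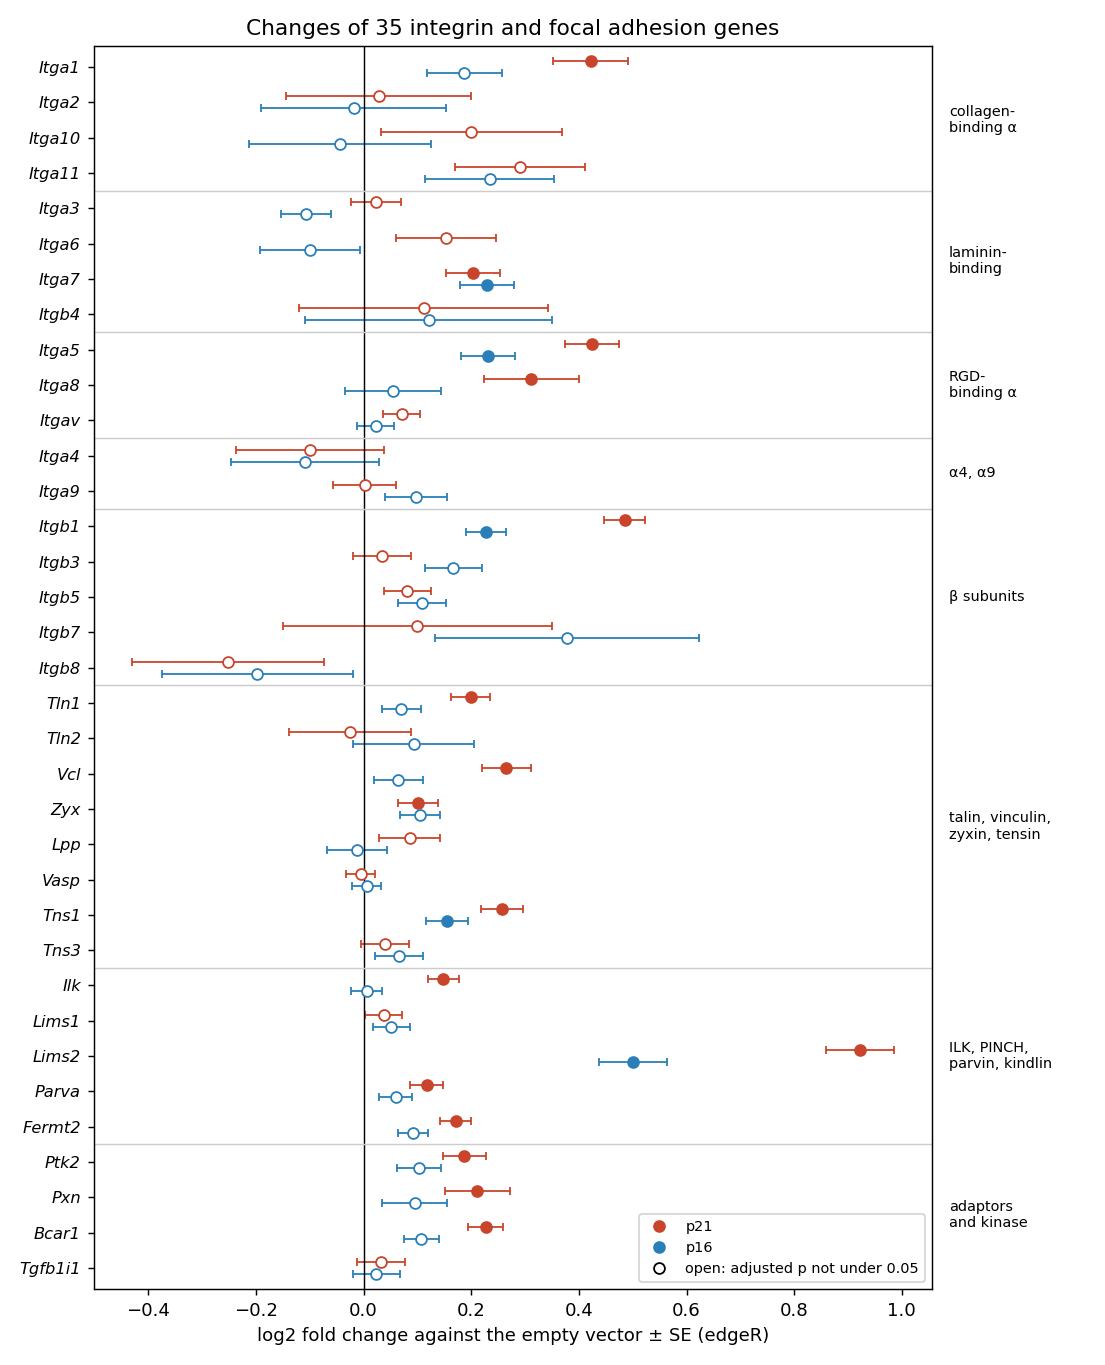
Log2 fold change ± SE (horizontal axis) of the 35 members with p21 and with p16 against the empty vector, grouped by role; filled points have an edgeR adjusted p under 0.05. All 16 filled p21 points and all 5 filled p16 points lie to the right of 0, and Lims2 lies farthest, at 0.92 and 0.50.

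The p16 libraries were set against the same 3 controls. With p16, 5 of 35 members rose and 0 fell, or 14.3% against a background of 5.8% of tested genes that rose and 5.56% that fell. Lims2 rose 1.42-fold (0.50 ± 0.064, edgeR adjusted p = 6.93e-04) and Itgb1 1.17-fold (0.23 ± 0.038, adjusted p = 0.00302). These calls held in each of 17 alternatives. Itga5 rose 1.17-fold as well (0.23 ± 0.050, adjusted p = 0.0125), a call lost without p16 replicate 2 (adjusted p = 0.0539). Itga7 rose to 29.1 ± 0.597 CPM (0.23 ± 0.050, edgeR adjusted p = 0.0127). Des rose with p16 too, from 87.4 to 145 CPM (edgeR adjusted p = 6.93e-04), as did Chrna1, from 1.63 to 2.52 CPM (adjusted p = 0.0410), and the muscle sum without Des was 2.65 to 3.42 CPM against 1.92 to 2.27. The part of such cells in this Itga7 value was not tested either. The fifth was Tns1, at 439 ± 9.19 CPM (0.16 ± 0.039, edgeR adjusted p = 0.0243).

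The p16 calls moved with the libraries used. The Itga7 call was lost without control replicate 1 or 2 or p16 replicate 2 (highest adjusted p = 0.0646). The Tns1 call was lost without control replicate 2 or 3 or any 1 of the p16 libraries, and with replicates 1 and 2 alone (highest adjusted p = 0.115). Without p16 replicate 2 only 2 members were called, without control replicate 2 only 3, and without p21 replicate 3, which enters through the shared spread, 8. The count over all genes moved as well. Genes higher with p16 numbered 404 of 14413, 475 of 14418 and 955 of 14414 in the same order, against 825 of 14223 in the main fit. With replicates 1 and 2 alone 4 members rose, against 5.59% of all genes that rose and 4.98% that fell. DESeq2 called 8 members higher, against 8.03% of all genes higher and 7.73% lower. Scaling by library totals gave 5 members higher, against 4.34% and 8.68%.

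With the replicate block 13 members rose with p16 and 0 fell, against 11.3% of all genes that rose and 10.1% that fell. The 8 added were Itgb3 (0.17, edgeR adjusted p = 0.00302), Itga11 (0.23, 6.90e-05), Itgb5 (0.11, 0.0167), Bcar1 (0.11, 0.0181), Zyx (0.11, 0.0212), Fermt2 (0.09, 0.0237), Itga1 (0.19, 0.0237) and Ptk2 (0.10, 0.0311). Itgb3, the αV partner that also forms the platelet fibrinogen receptor, stood at 77.2, 72.4 and 77.7 CPM in the controls and 84.2, 83.5 and 87.5 with p16, with no overlap.

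The direct comparison of p21 with p16 tests the difference between the 2 inhibitor groups. Their delivered genes rose over the controls by unlike amounts (log2 fold change 2.16 for Cdkn1a with p21 and 5.51 for Cdkn2a with p16). The part of these amounts in the differences was not tested. Of the 35 members 8 were higher with p21 and 0 lower, or 22.9% against a background of 6.15% of tested genes that were higher and 6.91% lower. Lims2 differed by 0.42 ± 0.062 on the log2 scale (edgeR adjusted p = 9.09e-04), Itgb1 by 0.26 ± 0.038 (adjusted p = 9.11e-04) and Ilk by 0.14 ± 0.029 (adjusted p = 0.00676). These 3 calls held in each of 17 alternatives. Vcl was higher by 0.20 ± 0.046 (edgeR adjusted p = 0.0130), a call lost without p21 replicate 1 or p16 replicate 3 (highest adjusted p = 0.0572).

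The remaining 4 calls depended more on single libraries and on the settings. Itga5 was higher with p21 by 0.19 ± 0.050 (edgeR adjusted p = 0.0256), Itga1 by 0.23 ± 0.069 (0.0428), Tln1 by 0.13 ± 0.036 (0.0351) and Bcar1 by 0.12 ± 0.033 (0.0331). The Itga5 and Bcar1 calls were lost without any 1 of p21 replicates 1 and 2 and p16 replicates 1, 2 and 3. The Itga1 call was lost without control replicate 1, p21 replicate 1 or 3 or any 1 of the p16 libraries. The Tln1 call was lost without p21 replicate 2 or 3 or p16 replicate 1 or 2. Settings also ended calls: library totals those of Itga1, Tln1 and Bcar1, and fitting only the 2 groups those of Itga5, Tln1 and Bcar1. Itga1 was lost too with replicates 1 and 2 alone, and Bcar1 without the filter. The highest adjusted p among these losses was 0.148, for Itga1. Members called higher numbered 4 without p21 replicate 1, p16 replicate 2 or p16 replicate 3, and 5 without p21 replicate 2 or p16 replicate 1. Over all genes the count fell too. In the same order 497 of 14396, 518 of 14413, 597 of 14422, 760 of 14409 and 498 of 14427 were higher, against 875 of 14223 in the main fit.

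With the replicate block 14 members were higher with p21 than with p16 and 2 lower, against 11.0% and 11.6% of all genes. The 6 added to the higher side were Itga6 (0.25, edgeR adjusted p = 5.55e-05), Itga8 (0.26, 0.00480), Lpp (0.10, 0.0132), Tns1 (0.10, 0.0135), Itga3 (0.13, 0.0180) and Fermt2 (0.08, 0.0448). The 2 lower with p21 were Itgb3 (-0.13, edgeR adjusted p = 0.0136) and Tln2 (-0.13, adjusted p = 0.0229). With replicates 1 and 2 alone 9 members were higher, against 6.41% of all genes higher and 6.85% lower. DESeq2 called 10 higher, against 7.9% and 8.81%. Scaling by library totals left 5 higher, against 5.17% and 8.82%.

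To compare the receptors by ligand, the levels per kb of the α subunits were summed by class within each library. The fibronectin and RGD-binding class (Itga5, Itga8, Itgav) held 84.7 ± 1.022% (SD, n = 3) of all α subunit signal in the controls, 86.1 ± 1.42% with p21 and 85.4 ± 1.54% with p16, with overlap between the groups. Within each replicate number its share was highest with p21 and lowest in the control. For p21, p16 and control it was 87.4, 86.7 and 85.6% in replicate 1 and 86.4, 85.8 and 84.9% in replicate 2. In replicate 3 it was 84.6, 83.7 and 83.6%. The collagen-binding class held 8.96 ± 1.23%, 8.64 ± 1.25% and 9.22 ± 1.63%, also with overlap, and its share was highest in replicate 3 of each group. The laminin-binding class (Itga3, Itga6, Itga7) held 5.79, 5.70 and 5.45% in control replicates 1, 2 and 3, 4.62, 4.67 and 4.87% with p21 and 4.91, 4.72 and 4.69% with p16. Every library of both inhibitor groups was below every control, and the 2 inhibitor groups overlapped. The α4 and α9 class held 0.659 ± 0.0403%, 0.511 ± 0.0325% and 0.601 ± 0.0226%, with p21 below the other groups.

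The summed level of the laminin class overlapped between the controls and p16, and with p21 it lay above the controls. In CPM per kb it was 21.2 to 22.5 in the controls, 22.6 to 24.1 with p21 and 20.6 to 21.8 with p16. The collagen class summed to 34.9 ± 4.91 CPM per kb in the controls, 42.7 ± 4.00 with p21 and 40.9 ± 6.82 with p16. The fibronectin and RGD class summed to 330 ± 4.49, 428 ± 30.9 and 379 ± 10.8, with every p21 library above every p16 library and every p16 library above every control. Each of these 2 sums was mostly 1 gene. In the controls, p21 and p16, Itga5 alone stood at 278, 373 and 326 CPM per kb, Itgav at 50.5, 53.1 and 51.3 and Itga8 at 1.66, 2.07 and 1.73. Itga11 alone stood at 33.3, 40.7 and 39.1 CPM per kb. As sums over chosen genes the class levels carry no test.

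**Figure D3:**
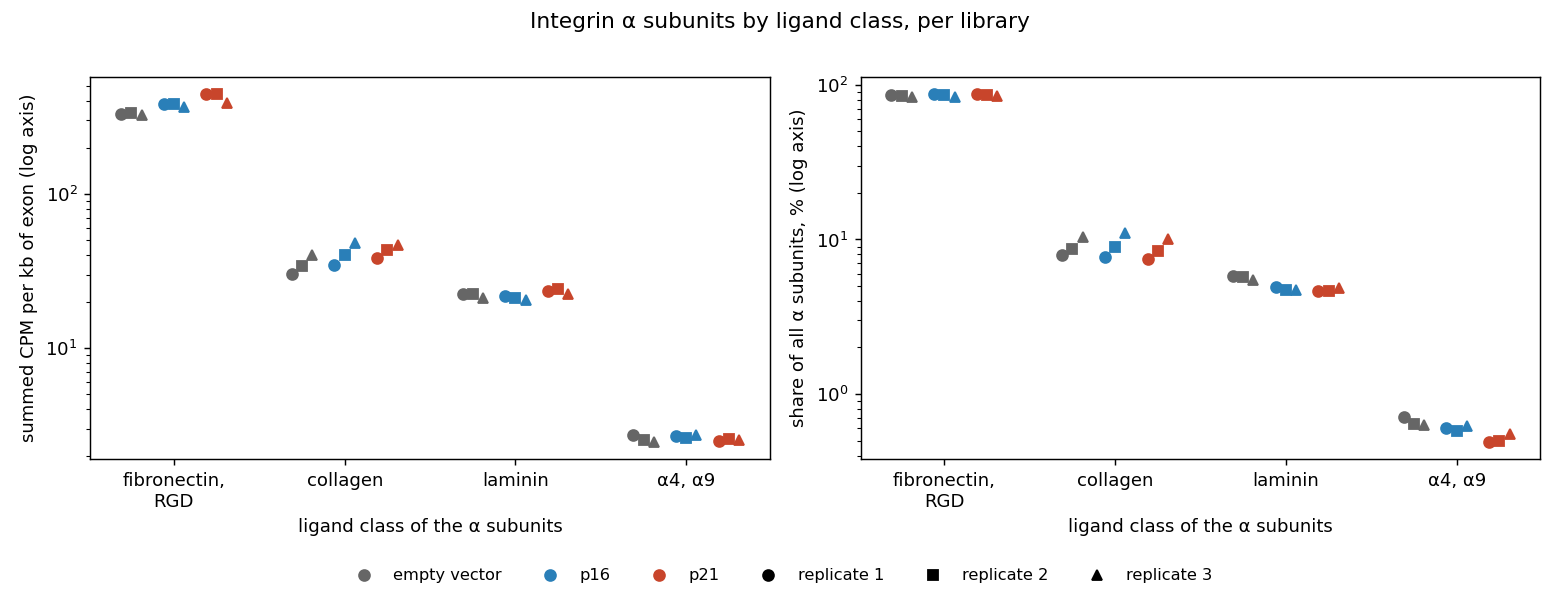
Summed CPM per kb of exon (left, log axis) and share of all α subunits in percent (right, log axis) by ligand class; each symbol is 1 library, coloured by vector. The fibronectin and RGD class dominates every library, and the laminin share of the p21 and p16 libraries (4.62 to 4.91%) lies below that of the controls (5.45 to 5.79%).

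The ligands of these receptors were listed apart from the members. Of 27 tested ligand genes 10 rose and 5 fell with p21, against 19.8% of all tested genes that rose and 20.1% that fell. With p16, 8 rose and 2 fell, against 5.8% and 5.56%. The falls were thus close to the background with either inhibitor. The median log2 fold change of the list was 0.17 with p21 and 0.10 with p16, against 0.00 over all tested genes in both. Fn1, which encodes the α5β1 ligand fibronectin, stood at 9886, 10204 and 10909 CPM in the controls, 15532, 15915 and 14771 with p21 and 12659, 13289 and 13428 with p16. The 3 groups did not overlap, in the same order as for Itga5 and Itgb1 (p21 0.58 ± 0.046, edgeR adjusted p = 1.44e-06, and p16 0.35 ± 0.046, adjusted p = 8.61e-04). Col4a1, a basement membrane collagen chain, rose from 1800 to 2500 CPM with p21 (0.47 ± 0.037), while Col6a2, a collagen VI chain, fell from 342 to 215 CPM (-0.67 ± 0.040). Of the laminin α chains, Lama2 rose from 51.4 to 64.6 CPM (0.33 ± 0.055, edgeR adjusted p = 4.66e-04). Lama3 also passed, at 0.209 and 0.563 CPM, and Lama1, Lama4 and Lama5 did not, at 2.702, 41.9 and 180 CPM in the controls and 2.43, 42.0 and 218 with p21.

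**Figure D4:**
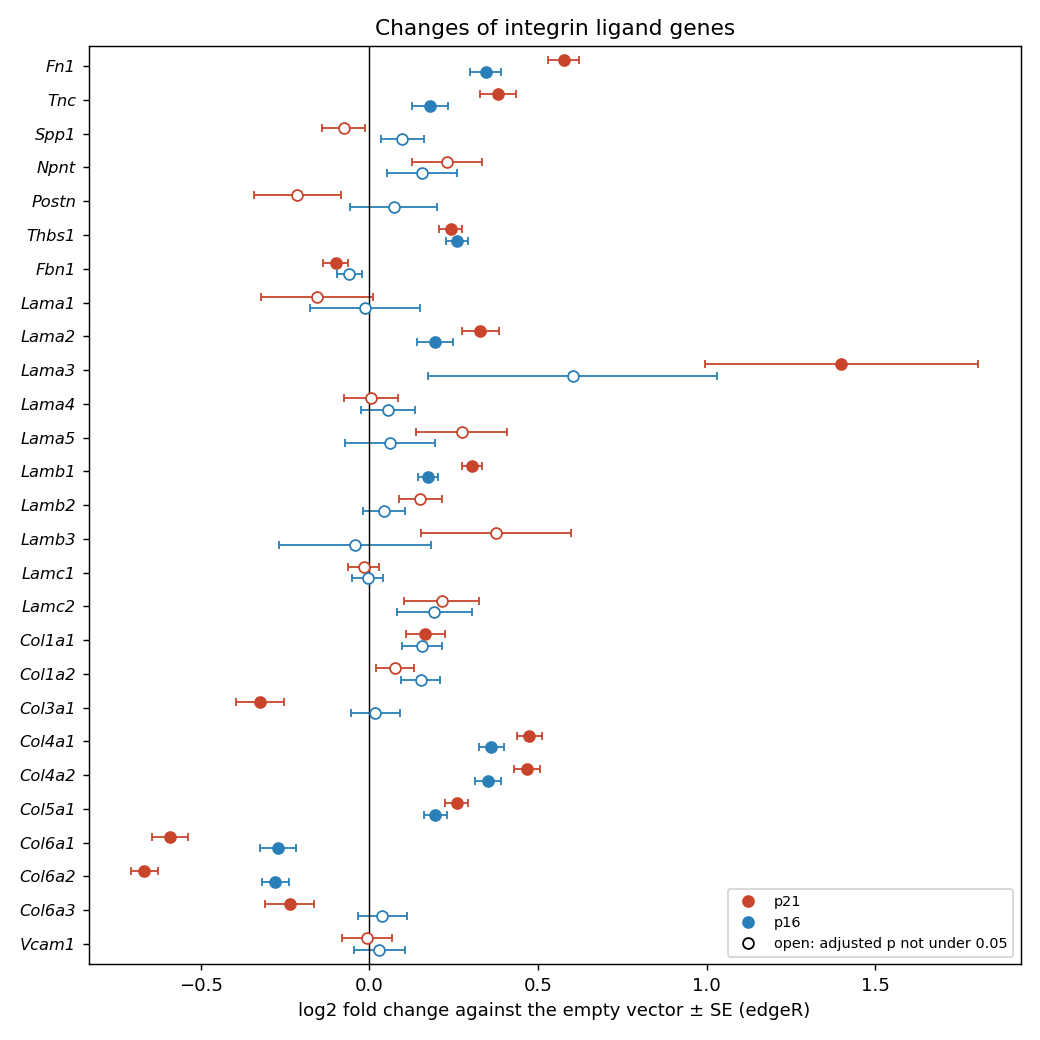
Log2 fold change ± SE (horizontal axis) of 27 integrin ligand genes with p21 and with p16 against the empty vector; filled points have an edgeR adjusted p under 0.05. Fn1, Col4a1 and Col4a2 lie to the right of 0 and Col6a1 and Col6a2 to the left with both inhibitors.

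In the wider adhesion lists more of the genes that passed rose than fell against the controls. Of 27 further plaque genes tested 15 rose and 2 fell with p21, against 19.8% of all tested genes that rose and 20.1% that fell. The list had a median of 0.27 on the log2 scale. With p16, 6 rose and 0 fell, against 5.8% and 5.56%, with a median of 0.10. Palld, which encodes the actin-bundling palladin, rose from 198 to 288 CPM with p21 (0.54 ± 0.038, edgeR adjusted p = 5.56e-07). Rsu1, which encodes a partner of PINCH1, rose from 150 to 202 CPM (0.43 ± 0.041), and Synpo2 from 13.7 to 21.7 CPM (0.66 ± 0.063). Of 33 further signalling genes 14 rose and 2 fell with p21 (median log2 fold change 0.10), against the same background. With p16, 3 rose and 0 fell, near the 5.8% of all tested genes that rose. Cd151, the tetraspanin that associates with laminin-binding integrins, rose from 153 ± 2.76 to 219 ± 3.58 CPM with p21 (0.52 ± 0.033, edgeR adjusted p = 2.93e-07), Rock2 from 380 to 484 CPM and Shc1 from 212 to 255 CPM. Of 6 tested subunits outside the members, which are mostly leukocyte integrins, only Itgal passed with p21, at 0.518 against 0.182 CPM, and Itgb2 and Itgad did not (edgeR adjusted p = 0.0515 and 0.0824).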

How the data were processed

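RNA-seq was measured in 9 libraries, 3 per group. The deposited table holds whole-number counts by gene symbol, unnormalized. The tools named, per the submitters' processing notes, are featureCounts 1.4.6 (Subread), TopHat2 2.0.14 and Bowtie2 2.2.6, with the build mm10. Annotation and strand setting are not given in the sources used here, and the kit named in the labels' protocols keeps no strand.

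Counts were fitted with edgeR 4.0.16 in R 4.3.3: filterByExpr by group (minimum count 10, minimum total 15), TMM scaling, 1 quasi-likelihood fit over all 9 libraries (6 residual degrees of freedom), two-sided F tests and Benjamini-Hochberg adjustment over 14223 genes, threshold 0.05. SE was computed from F as |log2 fold change|/√F. Libraries of a group differed by 5.32 to 17.2 times counting error (chi-squared per degree of freedom). Exon lengths (union of exons) and overlaps come from GENCODE M21, which held 22750 of the 24062 symbols. Promoter windows come from RefSeq.

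The members, the gene lists and the tests were chosen with earlier results of these data known. Values of each library are printed for members that passed against the control at an absolute log2 fold change of at least 0.4, for Itgb1 and for the most abundant α subunit of each class. Those of Itgb3 and Pxn were added after their values were seen. Of each wider list the up to 3 genes with the smallest adjusted p with p21 are named, plus Fn1 and the laminin α chains.

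After removal of group means, libraries with the same replicate number correlated at 0.126 to 0.361 and others at -0.246 to 0.106. The pairing by number was clearest for replicate 3, at 0.332 to 0.361. Among replicates 1 and 2, same-number pairs stood at 0.126 to 0.202 and other pairs at 0.048 to 0.106, so their pairing is weak. The labels do not say what the numbers stand for. The main fit has no block, and blocked values stand beside results they change. Alternatives were RLE factors, library totals, no filter, DESeq2 1.42.0 (Wald test), limma-voom (limma 3.58.1), only the 2 groups compared, the replicate block, replicates 1 and 2 alone and each library left out. Figures were drawn with matplotlib 3.10.9.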

Additional observations from a re-analysis of the deposited data

How the results depend on the processing

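Of the calls in the 3 comparisons, 12 of 16 with p21, 2 of 5 with p16 and 3 of 8 between p21 and p16 held in each of 17 alternatives. Leaving out 1 library at a time, members called higher ranged from 13 to 16 with p21, 2 to 8 with p16 and 4 to 8 between p21 and p16, where members called lower ranged from 0 to 1. Genes called among all tested ranged from 4617 to 5659 with p21, 759 to 1894 with p16 and 1074 to 1810 between p21 and p16, where the lone arms left with fewer libraries are assumed to vary like the others.

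DESeq2 called 8 members higher with p16 (1019 of 12686 genes higher). With the replicate block 13 members were higher with p16 (3044 genes called against 1616), and 14 were higher and 2 lower between p21 and p16 (3214 genes against 1858). The block ended no call of a member in any comparison. Between p21 and p16, 5 members were higher with scaling by library totals (735 of 14223 genes higher) and 5 with only the 2 groups fitted (707 of 14038). Without p21 replicate 3 the value of Tln2 between p21 and p16 turned from -0.12 to 0.0019 (edgeR adjusted p = 0.992), and with each library left out it ranged from -0.24 to 0.0019. The cause was not tested. Scaling by library totals moved the split of all genes with p21 from 2816 higher and 2865 lower to 2173 and 3734, and the median log2 fold change of all genes from 0.0011 to -0.048. With p16 the split moved from 825 and 791 to 617 and 1235, and between p21 and p16 from 875 and 983 to 735 and 1254. Among members never called under any setting (14 with p21, 22 with p16, 18 between them), 12, 10 and 10 changed sign in some setting.

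The laminin share was 6.77% in the controls, 5.87% with p21 and 5.86% with p16 from summed counts without division by length, and 7.47%, 6.39% and 6.43% with the length of the longest transcript, as the divisor sets the weight of each gene. Shares were also computed with 1 library left out, an alternative chosen after seeing the data. With 3 libraries a group such a mean cannot move by 1 SD, so only the ranges are given. In the controls, p21 and p16 they were 8.29 to 9.50, 7.96 to 9.20 and 8.34 to 9.95% for the collagen class. For the laminin class they were 5.58 to 5.75, 4.64 to 4.77 and 4.71 to 4.82%. For the fibronectin and RGD class they were 84.3 to 85.3, 85.5 to 86.9 and 84.7 to 86.3%. Members with few counts, such as Itgb4, Itgb7 and Itgb8, had coefficients of variation of 11.6 to 30.4%, which limits what the depth can show for them.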
